A study of Saccharomyces cerevisiae with 56 samples.

Results

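The COS genes are a subtelomeric family of Saccharomyces cerevisiae, and its 10 members numbered COS1 to COS10 were followed here in the wine yeast derivative 59A, the laboratory strain S288C and 44 segregants of their cross. The members were taken by name, and each was represented by 1 probe among the 6245 probes of the array table. 59A (MATa; ho) is a haploid derivative of the commercial wine strain EC1118, and S288C (MATα; SUC2, gal2) is the strain of the reference genome. All strains fermented SM425 (pH 3.3), a synthetic grape must whose usable nitrogen was set at 425 mg/L, and cells were taken in stationary phase at 66 g/L of CO2 released, which is 70% of the fermentation. Each parent contributed 2 RNA extracts, hybridised to 3 technical arrays apiece, whereas every segregant had 1 array, so that no value of a segregant has a replicate of its own. The 56 one-colour arrays lay on 7 slides of 8.

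Cos proteins are membrane proteins with several transmembrane segments that belong to the DUP380 group. They help to carry other membrane proteins into multivesicular bodies, the endosomal compartments that deliver cargo to the vacuole for breakdown, and they act together with ubiquitin-based sorting. Because their genes lie close to chromosome ends, their expression in laboratory yeast is linked to subtelomeric silencing by the NAD-dependent deacetylase Sir2. In the RefSeq gene order of S288C, COS2, COS5 and COS7 were the outermost protein-coding genes of the right arm of chromosome II, the right arm of X and the left arm of IV, respectively. COS1 (left arm of XIV), COS3 (left arm of XIII) and COS6 (right arm of VII) were in the second position from the end. COS8 (left arm of VIII) and COS10 (right arm of XIV) came in the fourth position, COS9 (left arm of XI) in the fifth and COS4 (left arm of VI) in the sixth. No sequence of the probes was used here, so how far a probe also bound the transcript of another close copy was not tested.

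Values are log2 intensities after quantile normalisation. The background of the scanner lay near 5.3, and a value under 6.3 was taken as not above background. All arrays had medians between 8.24 and 8.28. Missing values were concentrated in segregants 9c (571 probes) and 13b (562 probes). The mating type genes followed the labelled parents, since 5 of 5 measured MATa markers were higher in 59A and 4 of 4 tested MATα markers were lower.

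The first question was how the parents differed. Of the 9 COS genes that could be tested, 1 was called higher in 59A (COS9) and 4 were called lower in 59A (COS1, COS6, COS7 and COS8), at an adjusted p under 0.01 and a log2 difference over 0.7 (limma on extract means, 2 extracts against 2). Over all 5969 probes tested, 25.2% were called, 12.8% higher and 12.4% lower in 59A. The median log2 difference between 59A and S288C was 0.41 over the 9 COS genes and -0.007 over all probes. The values of the parents' single arrays did not overlap for any of the 10 genes. These arrays are technical readings of only 2 extracts per parent. The share of all probes without overlap was not computed, so this count has no background and is not read as a trait of the family.

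COS6 had the widest parental difference of the family. Its 59A arrays read 5.42, 5.41 and 5.55 in the first extract and 5.33, 5.31 and 5.25 in the second, and its S288C arrays read 11.97, 11.94, 11.99, 12.12, 12.08 and 12.04. All 59A arrays thus lay at background, and COS6 was at least 52.8-fold lower in 59A, with the mean of S288C set against the background limit (adjusted p = 1.43e-06, limma). COS7 followed the same pattern at a lower signal. The 59A arrays of COS7 read 5.27, 5.34, 5.38, 5.32, 5.43 and 5.36, and those of S288C read 7.67, 7.65, 7.65, 7.77, 7.87 and 7.74, so that COS7 was at least 2.68-fold lower in 59A (adjusted p = 2.48e-05, limma). From these arrays, a missing gene, a silent gene and a gene that differs under the probe cannot be told apart.

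COS8 and COS1 were measured above background in both parents. COS8 read 8.60, 8.53, 8.62, 8.57, 8.52 and 8.32 in 59A, and 9.75, 9.67, 9.70, 9.71, 9.67 and 9.77 in S288C. Its log2 difference was -1.18 ± 0.07 (SE, n = 2 extracts per parent; adjusted p = 0.000145, limma). COS1 read 9.50, 9.73, 9.21, 9.42, 9.39 and 9.62 in 59A, and 10.44, 10.42, 10.45, 10.50, 10.41 and 10.51 in S288C. COS1 was lower in 59A by 1.97-fold, with the 59A arrays more scattered than those of S288C (adjusted p = 0.000194, limma).

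COS9 was the only member called higher in 59A. Its arrays read 8.69, 8.75, 8.80, 8.80, 8.84 and 8.92 in 59A, and 7.75, 7.72, 7.80, 7.64, 7.79 and 7.72 in S288C, a 2.09-fold difference (adjusted p = 0.000208, limma). COS5 came next, from 12.06 to 12.17 in 59A and from 11.22 to 11.54 in S288C. Its log2 difference of 0.6996 fell just short of the limit of 0.7 although its adjusted p was 0.000589 (limma). With both limits kept, COS5 was called higher under 4 other settings, among them without the second 59A extract (0.716) and without the first S288C extract (0.729).

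The other members differed less between the parents. COS4 was 0.51 ± 0.07 higher in 59A on the log2 scale (SE, n = 2 extracts; adjusted p = 0.00209, limma), under the limit on size. COS2 (0.42 ± 0.11, adjusted p = 0.0214) and COS3 (0.41 ± 0.09, adjusted p = 0.0123) did not pass the limit on p in the same limma fit. COS10 lacked a value on 1 array of 59A and was outside the main fit. With its extract mean taken over the arrays left, a step chosen after the data were seen, COS10 was 0.57 ± 0.08 higher in 59A (adjusted p = 0.00263, limma), again under the limit on size.

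Slides 1, 2 and 5 held arrays of both parents. Within each of them every COS gene had the sign given above, COS10 on the 2 slides where both parents had a value. On each of them the 59A arrays of COS6 and COS7 were at background and the S288C arrays were not. COS8 differed by -1.39 to -1.14 within slides. COS9 differed by 0.94 to 1.28, and COS1 by -0.94 to -0.69, the last of these just below the limit on size.

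**Figure D1:**
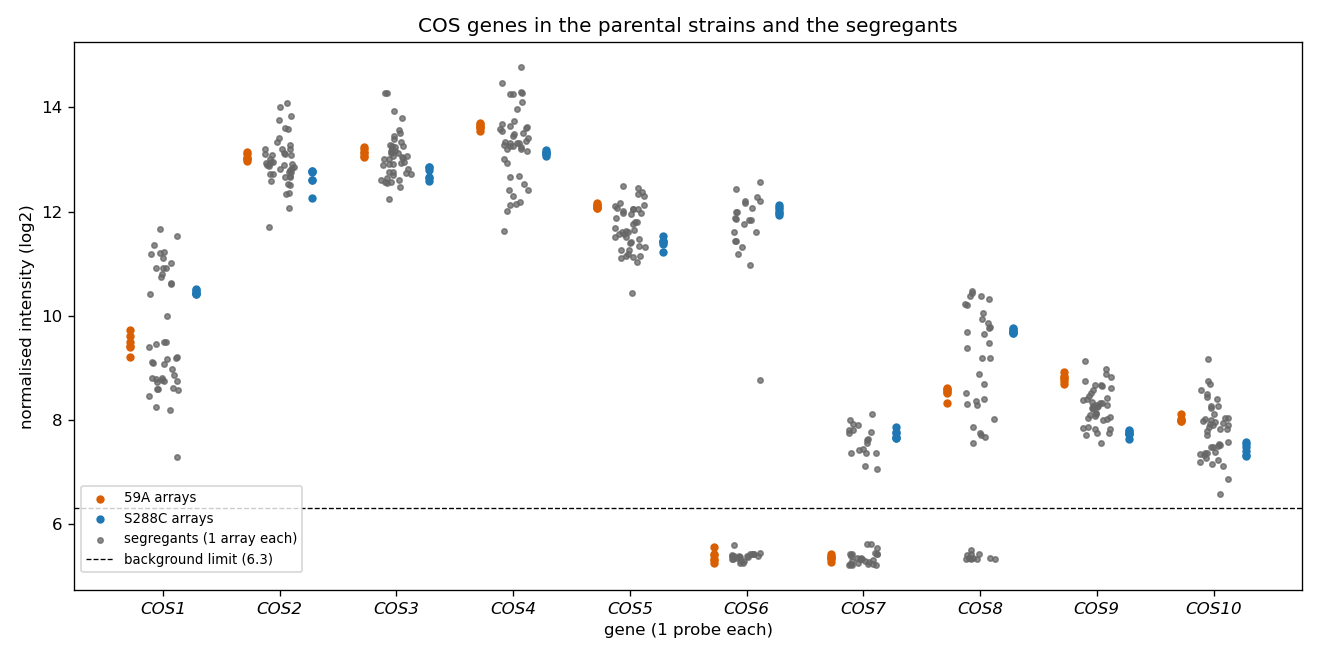
Normalised log2 intensity (vertical axis) of the 10 COS genes (horizontal axis) on the arrays of 59A (orange), of S288C (blue) and of the 44 segregants (grey, 1 array each), with the background limit of 6.3 as a dashed line. COS6, COS7 and COS8 each have segregants below the limit and a separate set above it, and 59A itself is below the limit for COS6 and COS7 only.

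The second question was which copies fell into separate ranges over the segregants. A gene was said to have 2 ranges where its widest gap between neighbouring segregants was at least 0.7 log2 with at least 6 segregants on each side. COS6, COS7 and COS8 met this rule, 3 of the 10 members, against 1.32% of all 6227 probes with enough values. The gaps of these members were 3.18, 1.43 and 2.05, and the next gap in the family was that of COS1, at 0.49. In the other 6 members the widest gap was 0.08 to 0.26.

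COS6 divided the segregants evenly. A lower set of 22 segregants lay between 5.26 and 5.59, level with 59A. The other 22 lay between 8.77 and 12.56, and 21 of them were at 10.98 or higher, close to S288C at 12.02. The exception was segregant 22b, alone at 8.77, more than 2 log2 units below the next segregant and far above background.

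COS7 had 26 segregants between 5.21 and 5.62, level with 59A, and 18 between 7.05 and 8.12, around the S288C mean of 7.72. No segregant lay between the ranges. For both COS6 and COS7 the lower range was wholly under the background limit, so the order of segregants within it carries no information.

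COS8 did not follow the parents in this way. A lower set of 12 segregants lay between 5.32 and 5.51, at background and more than 2 log2 units below every array of either parent. The other 31 segregants lay between 7.56 and 10.48 (median 9.38), with a widest gap of 0.30, and this upper range covered both 59A (8.53) and S288C (9.71). Within it, 11 segregants were below the 59A mean and 12 above the S288C mean. Segregant 13b had no COS8 value.

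COS8 lies at the left tip of chromosome VIII, and 59A carries a translocation between chromosomes VIII and XVI. The dose of the left arm of chromosome XVI was therefore read from the expression of 169 genes distal to SSU1, the sulphite pump gene near the breakpoint, as the median of their deviations from the segregants' medians. This index split the segregants into 31 between -0.28 and -0.05 and 13 between 0.52 and 0.65. All 12 segregants of the lower COS8 range were among those 13, and 30 of the 31 segregants of the upper range were among the other 31. The exception was 14a, with an index of 0.58 and a COS8 value of 9.78, inside the upper range. Segregant 13b, without a COS8 value, had an index of -0.10. These are counts over sides defined from measured values, since the labels give no copy number for any segregant. A legend of the study names 7a as a segregant with the partial disomy of this arm. The array labelled 7a had an index of -0.20 and a COS8 value of 7.71, in the lower set of the index.

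**Figure D2:**
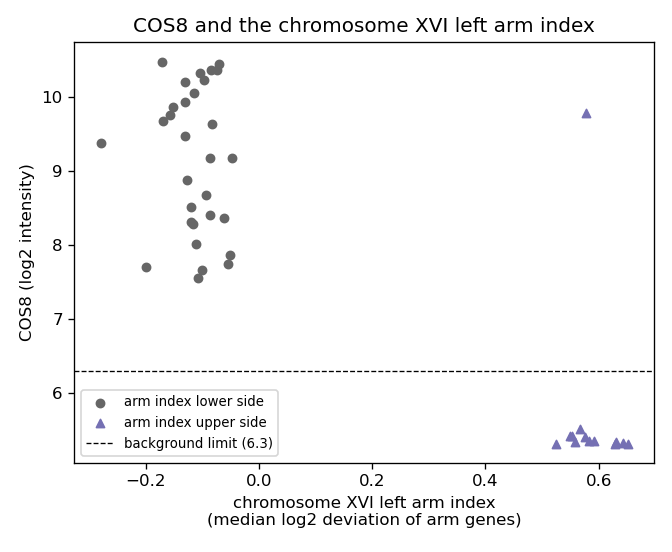
COS8 log2 intensity (vertical axis) against the chromosome XVI left arm index (horizontal axis, median log2 deviation of 169 genes) for 43 segregants, with triangles for the upper side of the index. The 12 segregants at background lie between 0.52 and 0.65 on the index, and 14a at 9.78 is the only segregant on that side above the background limit.

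Genes beside the members showed how far each split reached. MAL11, a maltose transporter gene of the right end of chromosome VII and 3 genes inward from COS6, was at background in 59A (5.34) and at 8.88 in S288C. It also had 2 ranges, and of the 44 segregants 21 were low in both COS6 and MAL11 and 21 high in both. The exceptions were 18b, low in COS6 and high in MAL11, and 18c, the reverse. PAU12 and YRF1-3, the genes on either side of COS6, had no such gap (0.19 and 0.13), but both belong to families of near-identical copies. Near COS7, AAD4, a putative aryl-alcohol dehydrogenase gene 5 genes inward, sat on the same side as COS7 in all 43 segregants with values, 25 low and 18 high. The closer SOR2, a sorbitol dehydrogenase gene with a near-identical copy, SOR1, near COS5, had 2 ranges, but its side was that of COS7 in 22 of 43 segregants (14 low in both and 8 high in both) and the opposite in 21. Beside COS8, the siderophore transporter gene ARN2 was low in 10 of the 11 segregants with low COS8 and an ARN2 value, and high in all 29 with high COS8. The exception was 9a, where COS8 was 5.42 and ARN2 6.74.

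The sides of COS6, COS7 and COS8 were next compared with each other in 3 pairs (Fisher's exact test, two-sided, Benjamini-Hochberg adjusted over the 3). For COS6 and COS7, 10 segregants were low in both, 6 high in both, 12 low in COS6 only and 16 low in COS7 only. The share on the same side was 36.4% (exact 95% interval 22.4 to 52.2%), against 50% from the margins (Fisher's exact p = 0.124, adjusted p = 0.373). For COS6 and COS8 the share was 53.5% (37.7 to 68.8%), with 49.5% from the margins (Fisher's exact adjusted p = 0.736). For COS7 and COS8 it was 37.2% (23.0 to 53.3%), with 46.4% from the margins (Fisher's exact adjusted p = 0.452). No pair was associated at an adjusted or an unadjusted p under 0.05, and intervals of this width leave room for moderate associations in either direction. These tests and intervals, and the permutation tests below, treat the segregants as independent. The methods state that complete tetrads were among them, and this was not modelled.

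All 8 combinations of the 3 genes occurred among the 43 segregants with complete values. The most frequent was high COS6, low COS7 and high COS8, in 11 segregants, and 9 more were low in COS6 and COS7 and high in COS8. In 5 segregants all 3 genes were high. Only 2a was low in all 3, at 5.42 for COS6, 5.24 for COS7 and 5.35 for COS8. The ranges were not spread evenly over slides: on slide 5 all 6 segregants were high in COS6 and low in COS7, whereas on slide 4 all 7 were high in COS8.

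The 7 members without 2 ranges were compared over segregants in 21 pairs by Pearson's r and Spearman's rho, with two-sided permutation p-values (100000 permutations) adjusted over the 21. By r, an adjusted p under 0.05 was reached by 10 pairs, all of them positive. By rho, the same 10 pairs and COS1 with COS2 reached it. COS2, COS3, COS4 and COS5 were correlated in all 6 of their pairs, COS1 passed with COS4 and COS5, and COS9 with COS2 and COS3. Many genes outside the family were as strongly related to some members. By absolute rho among 5181 other named genes, COS9 ranked 1389 for COS2 and 1393 for COS3. COS4 ranked 65 for COS2 and 138 for COS3. From COS5, in contrast, COS4, COS2, COS3 and COS1 held ranks 1 to 4. No pair with COS10 passed.

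COS2 and COS3, on chromosomes II and XIII, were the most closely correlated pair. Their levels were also nearly equal, with a median of -0.07 for COS2 minus COS3. How far the 2 probes read the same transcripts was not tested, so the pair may not be 2 separate measurements. COS2 ran from 11.70 to 14.08 (median 12.91) and COS3 from 12.25 to 14.27 (median 13.04) over 44 segregants. Their r was 0.93 and their rho 0.96 (permutation p = 1e-05 for each, the smallest these permutations can give; adjusted p = 7e-05 for r), and r was 0.77 to 0.99 within each of the 7 slides. With the 2 segregants most distant from the COS2 median removed, r was 0.96. Segregant 9c, which had the most missing values, stood off the line with the lowest COS2 value of all (11.70) and a COS3 value of 12.60. Among 5181 other named genes COS3 had the largest absolute rho with COS2, and COS2 with COS3.

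COS4 and COS5, on chromosomes VI and X, formed the other close pair. COS4 ran from 11.62 to 14.77 and COS5 from 10.43 to 12.49. Their r was 0.83 and their rho 0.82 over 43 segregants (permutation p = 1e-05, adjusted p = 7e-05 for r), r was 0.48 to 0.98 within slides, and it was 0.78 without the 2 segregants farthest from the COS4 median. COS4 and COS5 were also each other's closest gene by absolute rho. Segregant 24a was the lowest and segregant 14b the highest in both genes. The pairs across these 2 couples were weaker, with r from 0.55 (COS2 and COS4) to 0.65 (COS2 and COS5, COS3 and COS5), and each passed (adjusted permutation p from 7e-05 to 0.000315).

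**Figure D3:**
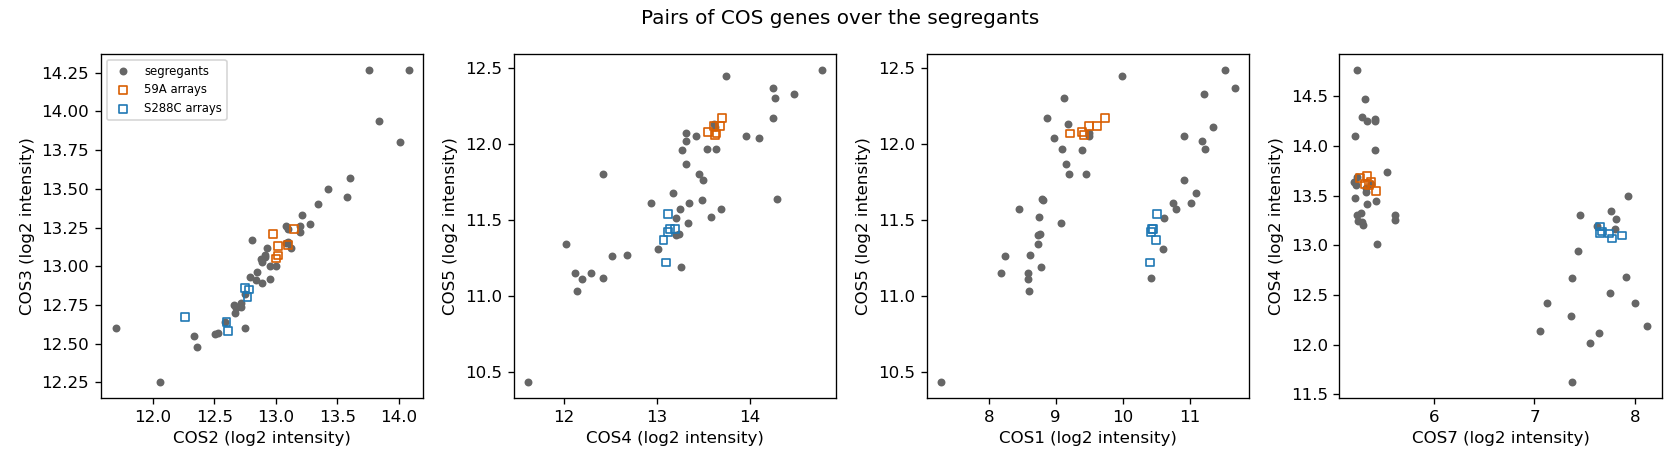
Log2 intensities of 4 pairs of COS genes, COS3 against COS2, COS5 against COS4, COS5 against COS1 and COS4 against COS7, with segregants as grey points and the arrays of 59A (orange) and S288C (blue) as squares. COS2 and COS3 lie along a line, as do COS4 and COS5, whereas COS5 rises along COS1 in a left and a right set of segregants, and all COS4 values under 13 fall where COS7 is above background.

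COS1 was related to COS5 through 2 sets of segregants. The best split of COS1 into 2 sets put 27 segregants between 7.29 and 9.50 and 17 between 9.99 and 11.67, on either side of its gap of 0.49. Over all segregants r with COS5 was 0.55 and rho 0.65 (adjusted permutation p = 0.0006 for r, n = 43), and r without the 2 segregants farthest from the COS1 median was 0.48. Within the lower set r was 0.83 and rho 0.83 (n = 27, adjusted permutation p = 0.00012 over the 12 values within sets), and r was 0.74 once the 2 most distant segregants were removed. Within the upper set r was 0.45 and rho 0.62 (n = 16, adjusted permutation p = 0.16), and r without the 2 farthest segregants was 0.90. This split was chosen after the data were seen. The lower set of 27 spanned the level of 59A (9.48), and 59A stood near its top.

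COS1 with COS4 gave r = 0.46 over all segregants (adjusted permutation p = 0.0048), 0.59 in the lower set (adjusted permutation p = 0.00426) and 0.50 in the upper set (adjusted permutation p = 0.116). On 1 of 7 slides the correlation of COS1 with COS4 was negative (-0.79), as was that with COS5 (-0.64), each over the few segregants of a slide. COS1 with COS2 (r = 0.30) and with COS3 (r = 0.29) did not pass by r after adjustment (permutation p = 0.0867 and 0.104), while by rho COS1 with COS2 passed (0.35, adjusted permutation p = 0.0446) and COS1 with COS3 did not (0.33, adjusted permutation p = 0.0518).

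COS9 and COS10 varied largely apart from the others. COS9 ran from 7.56 to 9.14 over 41 segregants and had r = 0.38 with COS2 and with COS3 (adjusted permutation p = 0.0292 for each). With COS1, COS4, COS5 and COS10 its r lay between 0.12 and 0.18. COS10 ran from 6.58 to 9.16 over 44 segregants, and its r with the other 6 members lay between -0.06 and 0.21 (adjusted permutation p from 0.262 to 0.894). A p that misses the limit does not show that the genes were unrelated.

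**Figure D4:**
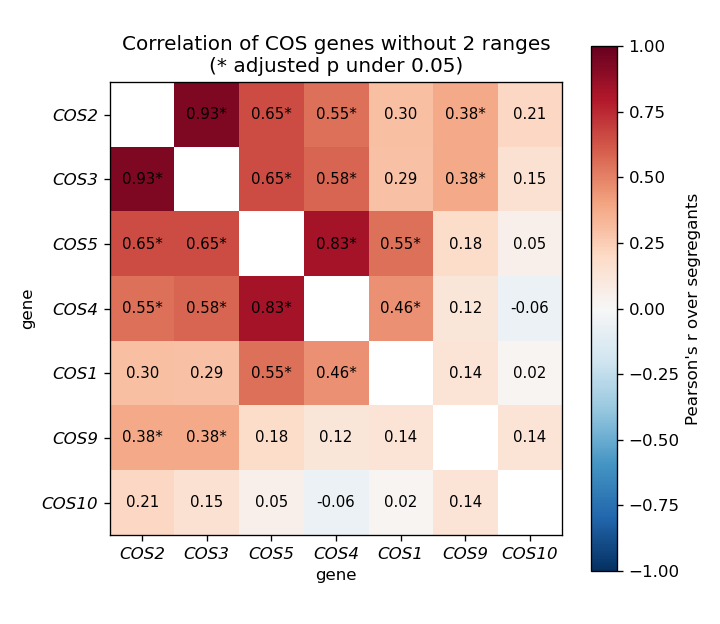
Pearson's r over the segregants for each pair of the 7 COS genes without 2 ranges (both axes list genes; colour from -1 in blue to 1 in red), with a star where the adjusted permutation p was under 0.05. COS2, COS3, COS5 and COS4 form a block of r from 0.55 to 0.93, and the row of COS10 holds no star.

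Members with 2 ranges were set beside the others only within a range, since the ranges form separate clusters. In the upper ranges, 5 of 27 correlations passed an adjusted p under 0.05 (adjusted over all 54 within ranges). Genes outside the family were not ranked within the ranges, so this count has no background and is not read as a trait of the family. COS6 in its upper range of 22 segregants was correlated with COS2 (r = 0.67, rho = 0.78, adjusted permutation p = 0.0157), COS3 (r = 0.60, rho = 0.75, adjusted permutation p = 0.0499) and COS5 (r = 0.64, rho = 0.82, adjusted permutation p = 0.0499). Without the 2 segregants farthest from the COS6 median these r were 0.75, 0.69 and 0.77. COS8 in its upper range of 31 segregants was correlated with COS3 (r = 0.58, rho = 0.61, adjusted permutation p = 0.0157) and COS5 (r = 0.51, rho = 0.50, adjusted permutation p = 0.0427), and r without the 2 farthest was 0.52 and 0.41. COS7 in its upper range of 18 segregants had r between -0.15 and 0.42 with the other 9 members, and none passed. In the lower ranges 1 correlation passed, COS7 with COS8 (r = 0.58, adjusted permutation p = 0.0427), but its COS7 values all lay at background and it is not read further.

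COS4 and COS5 also lay differently in the segregants of the COS7 ranges, which is given as a description without a test because the sides are themselves measured. COS4 ran from 13.01 to 14.77 in the 26 segregants low in COS7 and from 11.62 to 13.50 in the 18 high in COS7. COS5 ran from 11.19 to 12.49 in the former and from 10.43 to 11.96 in the latter. The values overlapped, but the 12 lowest COS4 values, 11.62 to 12.94, all belonged to segregants high in COS7. In the parents the same order held, with 59A low in COS7 and at 13.63 for COS4, and S288C high in COS7 and at 13.12.

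The spread of the members over the segregants differed widely. The SD was 3.25 for COS6, 1.91 for COS8, 1.15 for COS7, 1.14 for COS1 and 0.71 for COS4. It was 0.37 to 0.53 for the other 5 genes, against a median of 0.35 over all probes. For every member the variance over segregants exceeded that of single arrays of the same parent. Of the variance of COS2, 90.2% lay beyond the arrays' own, and of that of the other members 94.8 to 99.9%. The values for all probes were not set beside these, so they are not read as a trait of the family. The parental arrays come from only 2 extracts per parent, so their variance can understate the spread between separate cultures.

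Many segregants lay outside the parents in COS1 and COS8. With a margin of 2 SD of single arrays, 13 segregants were above both parents and 23 below both for COS1, in all 81.8% of segregants, and 9 above and 21 below for COS8 (69.8%). The 21 include the 12 segregants with COS8 at background. COS4 had 9 above and 13 below (50%). The margin differs between genes, as the SD of single arrays was 0.045 for COS4 and 0.147 for COS2, so these shares are not directly comparable. The median over all probes was 22.7%. COS6, COS7 and COS9 had few, with 11.4, 9.1 and 7.3%, and COS2 and COS3 had 22.7% each.

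For each member, the 3 named genes outside the COS family with the largest absolute rho over the segregants were taken. For COS6, COS7 and COS8 these rho include the values at background, which have no order, so that they mainly reflect the sides. Outside the family, COS1 was most like 3 genes of chromosome XIV, SNO2 (rho = 0.58), KRE1 (-0.55) and PFS2 (-0.55), at 2, 13 and 17 genes from it. SNO2 belongs to a vitamin B6 gene family with close copies, one of which, SNO3, lies beside COS4 (rho with COS4 = 0.49). COS6 was most like the maltose genes MAL13 (0.74) and MAL11 (0.63) of its own chromosome end and MAL33 of chromosome II (-0.64). COS7 was most like AAD4 (0.65), 5 genes away, MPH3, an alpha-glucoside permease gene of chromosome X (0.53), and GTO1, a glutathione transferase gene (0.52). MPH3 lies beside COS5, and MPH2, the gene beside COS7, had a rho of 0.47 with COS7. How far the probes of MPH2 and MPH3 read the same transcripts was not tested. COS8 was most like TCO89 (-0.78), a TORC1 subunit gene of chromosome XVI, and ARN2 (0.76) and VMR1 (0.76), 1 and 13 genes from it on chromosome VIII. Split at its widest gap (0.20), TCO89 was high in all 12 segregants low in COS8. It was low in 30 segregants high in COS8 and high in 1, the same counts as for the chromosome XVI arm index. As TCO89 lies on chromosome XVI itself, this match is not read as separate from that index.

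For the other members most of these genes lay on other chromosomes. COS2 and COS3 shared SMC2, a condensin gene of chromosome VI (rho = 0.72 and 0.75). COS2 was also close to DLD3, a lactate dehydrogenase gene (0.76), and SOD2, the mitochondrial superoxide dismutase gene (-0.72), and COS3 to KAP122 (0.73) and PDR8 (0.72). COS4 and COS5 shared POL32, a DNA polymerase delta subunit gene (0.63 and 0.62) on the chromosome of COS5, 118 genes from it. COS4 was also close to HAP4, an activator of respiratory genes (-0.63), and to AAD4 (-0.61), and COS5 to PFK2, a phosphofructokinase subunit gene (0.64), and YMR027W (0.62). COS9 had ATX2 and HST4 (0.69 each) and PAC2 (-0.68), and COS10 had BNI1 (-0.65), 333 genes away on the same chromosome, ERV1 (0.62) and SPT23 (-0.62). These values are a description over 39 to 44 segregants measured on shared slides. With the measured genes within 3 places, rho lay between -0.23 and 0.31 for COS2, between -0.44 and 0.08 for COS3, between -0.17 and 0.49 for COS4, between -0.31 and 0 for COS5 and between -0.30 and 0.39 for COS10. For COS9 it ran from -0.67, with YKL222C, to 0.14, with FRE2.

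The labels name 4 segregants 16a to 16d and 4 others 22a to 22d. The methods say that complete tetrads were among the segregants but do not name them, and these are the only numbers with 4 segregants. In 16a, 16b, 16c and 16d, COS6 read 11.86, 5.43, 5.26 and 11.44, and COS7 read 7.76, 7.91, 5.42 and 5.33, so each gene was high in 2 and low in 2, in different pairs. COS1 read 10.75, 8.61, 11.67 and 8.75 in the same order, high in 16a and 16c. In 22a, 22b, 22c and 22d, COS7 read 5.38, 5.62, 7.62 and 7.75, again 2 low and 2 high, and COS1 read 11.35, 8.78, 10.62 and 8.24. COS6 read 12.28, 8.77, 5.41 and 11.88, high in 2, low in 1 and intermediate in 22b. COS8 was above background in all 8 segregants, from 8.29 to 10.48.

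**Figure D5:**
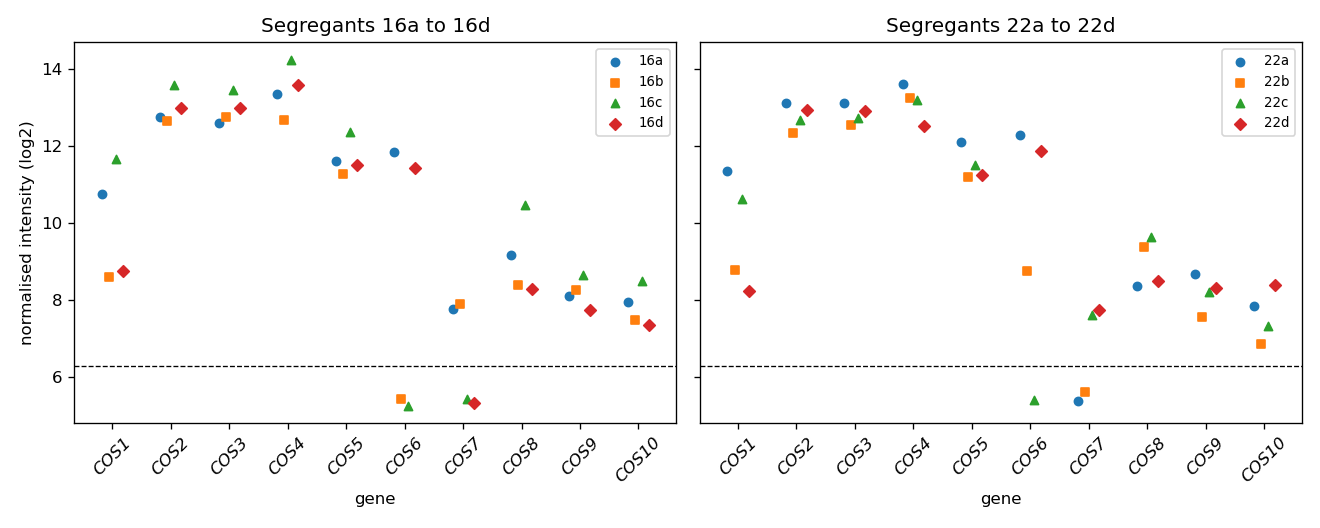
Normalised log2 intensity (vertical axis) of the 10 COS genes (horizontal axis) in segregants 16a to 16d and 22a to 22d, 1 symbol for each segregant, with the background limit of 6.3 as a dashed line. COS6 and COS7 fall 2 and 2 on either side of the limit in the first set, with 16a alone high in both, and 22b has a COS6 value of 8.77.

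Genes of the wider pathway were counted in the comparison of the parents, read against the 25.2% of all probes called. COS111 shares the name but lies at place 100 from the end of the right arm of chromosome II, so it is not subtelomeric. It was tested and not called (log2 difference -0.15). COS12, the outermost gene of the left arm of VII, lacked a value on 1 array of 59A. With its extract mean taken over the arrays left, COS12 was 0.27 ± 0.08 higher in 59A and not called (adjusted p = 0.0265, limma). Among 5 measured relatives of the DUP240 group, only PRM8 was called, at background in 59A (5.38) and at least 1.90-fold lower there than in S288C (7.22; adjusted p = 4.6e-05, limma). MST27, MST28 and PRM9 were at background in both parents. Of 18 tested ESCRT and multivesicular body genes, only VPS36, an ESCRT-II subunit gene, was called, lower in 59A by 0.78 on the log2 scale. Of 16 tested genes for ubiquitin ligases and adaptors of cargo sorting, which include Rsp5 and its adaptors, 3 were called lower, EAR1 (-1.12), BSD2 (-1.0) and ROG3 (-0.87), and none higher.

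Of 14 tested genes of telomeric silencing, 4 were lower and 1 was higher in 59A. SIR3, a structural protein of silent chromatin, was lower by 1.12 on the log2 scale, and RAP1, the telomere-binding factor, was 2.82-fold lower. The sirtuin gene HST2 (3.78-fold) and the histone methyltransferase gene SET1 (1.73-fold), named after their values were seen, were the other genes called lower. SIR1, which acts at the silent mating loci, was higher (0.99 ± 0.07, adjusted p = 0.000236, limma). SIR2 itself had a log2 difference of 0.50 ± 0.07 (adjusted p = 0.00251, limma), under the limit on size. Of 13 tested genes of NAD synthesis and salvage, 5 were higher in 59A and none lower, among them the nucleoside salvage genes URH1 (1.24), NRK1 (1.21) and PNP1 (1.06). The median log2 difference was 0.59 over the NAD genes and -0.33 over the silencing genes.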

How the data were processed

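The authors made Cy3-labelled cRNA from total RNA, hybridised it to Agilent one-colour arrays, and deposited log2 spot intensities that they had quantile normalised with limma in R 2.13.1; depth has no meaning for arrays, whose number limits the precision. All 56 columns of the table were used. The methods state a smaller number of arrays. The genome build of the probes is not given in the sources used here. Of 6245 probes, 5197 had 1 gene name, and 51 names were updated to current RefSeq symbols (assembly R64), which also gave the gene order. Parents were compared with limma 3.58.1 (R 4.3.3) on the means of 3 technical arrays for each of 2 extracts, with Benjamini-Hochberg adjustment over the 5969 probes that had no missing value among the 12 parental arrays. The labels and methods call the extracts biological replicates, without further detail, and p-values measure the spread between them. Segregants were analysed in Python 3.11.15 with scipy 1.17.1, for probes with at least 40 values. Both procedures were tested on simulated data. The text names all 10 members, the 3 most similar genes of each outside the family, neighbours within 3 places where their values are discussed, and up to 3 called genes of each list, with exceptions marked. The members and lists were chosen with earlier results of these data known.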

Additional observations from a re-analysis of the deposited data

Results flagged for a closer look

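Each parent's arrays were examined for 1 array standing apart from the others, in 20 groups of 5 or 6 arrays, and 2 were found, while chance gives about 1 in 20. For COS2 in S288C, the second technical array of the second extract read 12.26, and the other 5 arrays lay between 12.60 and 12.78. For COS8 in 59A, the third technical array of the second extract read 8.32, and the others lay between 8.52 and 8.62.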

How the results depend on the processing

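The count of COS genes called lower in 59A was 4 under all alternatives except a minimum difference of 1, where COS1 left it and 3 remained called. The count called higher was 1, and 2 when slides were blocked on top of random extracts, 2 with arrays shifted to equal medians of bright probes, and 3 with no minimum difference (COS4, COS5 and COS9). Leaving out each extract in turn gave 1 to 2. The added gene was COS5 where the count was 2. The replicate numbers of the extracts follow codes in the sample titles that both parents share, and what the codes stand for is not stated. A paired fit with the replicate block gave 1 higher and 4 lower and changed no call of a COS gene, and over all probes it moved the calls from 1503 to 1528. Extract 1 deviated alike in both parents (r = 0.44 over probes). The rule for 2 ranges chose COS6, COS7 and COS8 under 7 of 8 alternatives. With slide-centred values 2 genes remained, COS6 with a gap of 1.83 and COS8 with a gap of 0.70, just at the limit. The COS7 gap was 0.32. By construction, centring shifts slides that hold segregants of 1 range only, as slide 5 does for COS7. No pair of 2-range genes was associated under any alternative. Of the pairs without 2 ranges, 10 were correlated by r, and 6 of the 54 correlations within each range of the 2-range genes passed. No correlation of a pair changed side with slide-centred values or without 9c and 13b. With 1 array for each segregant, and 12 to 26 of them at background for 3 genes, differences within those lower ranges were not detectable.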

Other observations

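Segregant 22b stood alone at the lower edge of the upper range of COS6, at 8.77. It was low in COS7 (5.62) and had the lowest COS9 value (7.56), while its COS8 value of 9.38 was the median of the upper range. MAL13, the maltose activator gene near COS6, was on its lower side in 22b although COS6 was on its upper side. Segregant 24a had the lowest values of COS1 (7.29), COS3 (12.25), COS4 (11.62) and COS5 (10.43) and the lowest COS8 (7.56) in its upper range, and its COS6 (10.98) was the lowest of that upper range after 22b, while its COS9 value of 8.27 was the median. Segregant 14b had the highest COS2 (14.08), COS4 (14.77) and COS5 (12.49), and shared the highest COS3 (14.27) with 28b. Segregant 16c had the highest COS1 (11.67) and COS8 (10.48).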
